A study of Drosophila melanogaster with 2 samples.

Results

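The peaks described here lay deep inside introns. They are the nuclear TFAM-GFP peaks of the authors' thresholded list whose highest point, the summit, fell inside an annotated gene, in no annotated exon, and more than 2000 bp from every annotated transcription start site. The rule used position only and no measured value. It found 248 of 1268 nuclear peaks, and another 22 of the 1290 deposited peaks lay on the mitochondrial genome and were set aside. Chromatin immunoprecipitation followed by sequencing (ChIP-seq) had been done on 2 samples, biological replicates 3 and 4, which form 1 group. Both came from whole embryos of mixed sex aged 0 to 16 h, of a transgenic fly line that stably carries TFAM with GFP fused to its C-terminal end. The immunoprecipitation was directed against GFP according to the descriptions, whereas the label for the antibody says TFAM. No embryos without the tag were analysed here, so signal that does not depend on the tagged protein cannot be told apart from signal that does, and whole embryos pool all cell types.

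TFAM is a DNA-binding protein of the HMG-box family that packages mitochondrial DNA and helps to start its transcription. Introns of the fly are spliced out of the primary transcript, and long ones often hold enhancers and other control elements of their own or neighbouring genes. A peak far from any start site is therefore in sequence where promoter elements are not the usual content.

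The windows below are shown to let the letters under high-scoring summits be read beside the sequence results further on, and they were not chosen as the clearest cases of a pattern. Each is the 201 bp centred on a summit, on the plus strand of dm6 (Release 6, from RefSeq). The first 5 are among the members with the highest values, and the last 3 are members of lower value that hold ACAGTG on either strand. The first 5 follow each other by value, but they do not start at the top. The members in sbb, Lrch and CG46321 had higher values than any printed here. No window from the chromosome arm that carries sbb is printed. Members in Hr4, CG32486 and CG12769 stood between S and sim. Capitals mark every match, on either strand, of the 5 words of 6 letters whose share in the member windows most exceeded their share in all deep intronic windows, AAATAT first, then the palindrome AATATT, followed by TAAATA, by ACAGTG as the single one with C and G, and by AAAATA. These words were picked out of 2080 on the same member windows. Matches may overlap, so that a run of capitals can hold several words.
Tlk, chrX:3742135-3742335: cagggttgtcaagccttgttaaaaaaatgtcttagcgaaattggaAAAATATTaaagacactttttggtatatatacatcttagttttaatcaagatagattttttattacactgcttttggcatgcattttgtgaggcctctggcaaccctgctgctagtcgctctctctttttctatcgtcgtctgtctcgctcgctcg
Gug, chr3L:8458214-8458414: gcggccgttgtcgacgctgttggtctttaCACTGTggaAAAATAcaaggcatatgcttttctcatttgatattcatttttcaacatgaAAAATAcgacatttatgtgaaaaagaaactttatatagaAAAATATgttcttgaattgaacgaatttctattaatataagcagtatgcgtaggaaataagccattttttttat
fz, chr3L:14303976-14304176: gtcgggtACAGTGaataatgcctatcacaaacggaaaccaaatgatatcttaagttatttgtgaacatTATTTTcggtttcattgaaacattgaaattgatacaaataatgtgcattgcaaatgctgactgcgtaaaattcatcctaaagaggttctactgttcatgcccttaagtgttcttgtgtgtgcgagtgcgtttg
Raf, chrX:2297603-2297803: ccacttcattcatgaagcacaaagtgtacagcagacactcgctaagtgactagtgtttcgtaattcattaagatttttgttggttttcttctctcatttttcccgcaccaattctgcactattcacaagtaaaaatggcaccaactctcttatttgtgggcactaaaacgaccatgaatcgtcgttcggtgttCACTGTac
S, chr2L:1072284-1072484: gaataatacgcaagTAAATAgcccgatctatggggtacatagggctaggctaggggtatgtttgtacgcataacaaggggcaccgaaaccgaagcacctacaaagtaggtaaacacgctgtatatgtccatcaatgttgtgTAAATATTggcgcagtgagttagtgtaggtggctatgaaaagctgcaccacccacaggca
sim, chr3R:13068142-13068342: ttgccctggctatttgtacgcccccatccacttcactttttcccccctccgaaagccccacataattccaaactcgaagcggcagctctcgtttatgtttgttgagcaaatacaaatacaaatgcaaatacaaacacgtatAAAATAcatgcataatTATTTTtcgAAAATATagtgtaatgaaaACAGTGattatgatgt
aos, chr3L:16480458-16480658: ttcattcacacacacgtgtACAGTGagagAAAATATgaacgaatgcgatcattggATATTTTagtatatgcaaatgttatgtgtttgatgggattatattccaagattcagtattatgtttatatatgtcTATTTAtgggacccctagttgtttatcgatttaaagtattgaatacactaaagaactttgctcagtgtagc
rdx, chr3R:14012643-14012843: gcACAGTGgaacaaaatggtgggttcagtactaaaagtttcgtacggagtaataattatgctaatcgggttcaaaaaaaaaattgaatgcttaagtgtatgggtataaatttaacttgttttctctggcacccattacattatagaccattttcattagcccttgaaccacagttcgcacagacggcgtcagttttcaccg

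Among the printed windows, that of aos held 5 matches of the 4 words made of A and T only. The window of Raf held none of these 4 words, and its single capital run was ACAGTG read on the opposite strand. The windows of fz, Gug, sim and aos held both kinds of word, those of Tlk and S held no ACAGTG, and that of rdx, like that of Raf, held no word of A and T only. Tlk is the Tousled-like kinase. Gug encodes the fly Atrophin, a transcriptional corepressor, and fz the receptor Frizzled of Wnt and planar polarity signalling. Raf is the kinase that acts above MEK, S (Star) serves the export of EGF receptor ligands, and aos (argos) is a secreted inhibitor of that receptor. The gene sim (single-minded) encodes a regulator of midline cells, and rdx (roadkill) a substrate adaptor of a ubiquitin ligase.

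Deep intronic summits were fewer than the sequence open to them. They made up 19.6% of nuclear summits (95% Wilson interval 17.5 to 21.8%), while 30.9% of the bases of the 6 chromosomes used met the same rule. The share of summits was 0.632 of the share of bases (0.565 to 0.706). Intervals of this kind cover the counting of peaks only, since peaks are not replicates. By chromosome arm the density lay between 5.53 and 6.91 members per Mb of deep intronic sequence on the 5 large arms, against 5.99 over all. Chromosome 4 held 0 members in 0.445 Mb, and a count of 0 there, taken as up to 3 members, allows up to 6.74 per Mb, which is below the 6.91 of arm 2L and above the densities of the other 4 large arms.

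Within introns the peaks thinned with distance from start sites. Between 2 and 5 kb from the nearest start site there were 9.91 members per Mb (130 members), and between 5 and 10 kb 6.78 per Mb (75 members). From 10 to 20 kb the density was 3.85 per Mb (33 members), and beyond 20 kb it was 1.16 per Mb (10 members). The regions of the authors' pooled list, which was made on both replicates together before the reproducibility threshold and includes background, thinned in the same order, at 77.1, 61.6, 45.9 and 15.2 regions per Mb. The share of those regions that overlapped a thresholded peak was 13.6% nearest to start sites (interval 11.7 to 15.9%) and 12.5, 8.40 and 7.63% in the further bins. The nearest and the third bin did not overlap in their intervals, and the fourth (4.20 to 13.5%) overlapped all others.

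First introns were the denser ones. Of the 248 members, 105 (42.3%, 36.4 to 48.6%) lay in the first intron of the longest transcript of a gene, while 25.1% of deep intronic bases did, a difference of 17.2 points (11.2 to 23.4). The density was 10.1 members per Mb in first introns and 4.61 per Mb elsewhere. The same order held in each bin of distance: 12.3 against 8.57 per Mb from 2 to 5 kb, 10.3 against 5.41 from 5 to 10 kb, 6.95 against 3.07 from 10 to 20 kb, and 3.62 against 0.895 beyond 20 kb. In the last bin these densities rest on 3 and 7 members.

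**Figure D1:**
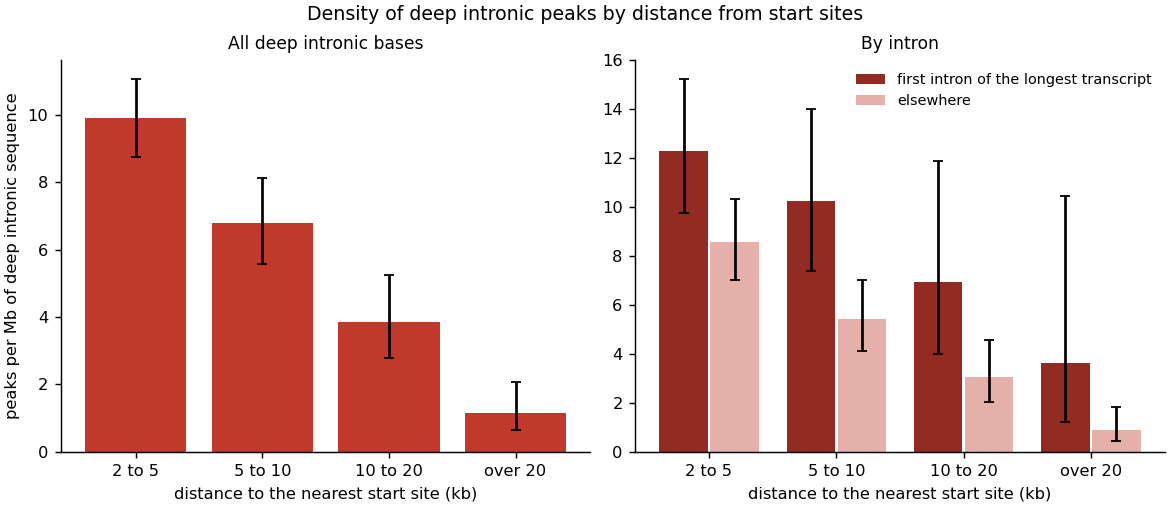
Left, deep intronic peaks per Mb of deep intronic sequence (y axis) in 4 bins of distance from the nearest start site (x axis, kb); right, the same for first introns of the longest transcript (dark) and for all other deep intronic sequence (light). Bars are densities and error bars the 95% Wilson interval of the bin's share of the 248 peaks, divided by its Mb. Density falls with each bin, from 9.91 to 1.16 per Mb, and the dark bar is above the light bar in every bin.

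The members lay well inside their introns. The start site distance ran from 2004 bp to 34.9 kb with a median of 4.80 kb (quartiles 3.13 and 7.89 kb), and the intron around a member was 0.529 to 78.4 kb long, with a median of 11.9 kb. The median distance to the nearest exon was 2760 bp, and 9 members were within 500 bp of one. The nearest start site belonged to a host gene for 173 members and to a different gene for the rest. For 162 members the summit was downstream of that start site and for 86 upstream of it. No member lay in an annotated transposable element, and no window shared more than 4 words of 20 bases with the window of another member.

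On either side of the 2000 bp limit the values overlapped. The 3 members just inside it were in lncRNA:CR44320 (2004 bp, value 108), pnt (2008 bp, 95.6) and RhoGAP18B (2019 bp, 131). The 3 intronic peaks just outside it were in hiw (1993 bp, value 99.6), msn (1990 bp, 103) and Dys (1962 bp, 101). The value is the score that the authors' peak caller gave each peak against a control. It has no fixed range and differs in scale between the lists, so it serves to rank peaks within 1 list.

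Deep intronic peaks scored lower than promoter, nearer intronic and intergenic peaks. Their value in the thresholded list was 92.6 at the lowest, 119.6 at the median and 464 at the highest. The median was 130.6 for the 216 intronic peaks nearer to start sites (beyond the promoter class and up to 2000 bp), 132.0 for the 156 intergenic peaks and 134.5 for the 616 promoter peaks (within 500 bp). Intergenic peaks lay outside genes and more than 500 bp from a start site, so they were not held to the 2000 bp limit of members. Of the members, 38.7% (96 of 248) stood above the median of all nuclear peaks, against 54.1% of promoter peaks, a difference of -15.3 points (Newcombe 95% interval -22.4 to -8.01). The difference was -11.8 points from nearer intronic peaks (-20.6 to -2.69) and -13.2 points from intergenic peaks (-22.9 to -3.26). These 3 intervals lay below 0. From the 32 exonic peaks, with a median of 124.6 and 46.9% above the nuclear median, the difference was -8.17 points and its interval (-25.8 to 8.996) includes 0.

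The replicates did not show this equally. By the replicate 3 value, 34.7% of members stood above the nuclear median, against 56.3% of promoter peaks, a difference of -21.7 points (-28.5 to -14.4). By the replicate 4 value the shares were 44.0% of members and 52.3% of promoter peaks, a difference of -8.32 points (-15.5 to -0.952). Against nearer intronic peaks the replicate 4 difference was -7.44 points (-16.4 to 1.66) and against intergenic peaks -5.41 points (-15.2 to 4.52), and both intervals include 0. Against exonic peaks it was 0.202 points (-17.8 to 16.98), while in replicate 3 it was -18.4 points (-35.4 to -0.686). When the peaks were also placed by the replicate 4 summits alone, the difference from promoter peaks was -7.33 points with an interval that reached 0.0849. With only peaks above the nuclear median kept, and split at the median of those, the difference from promoter peaks was -6.58 points (-17.6 to 4.69). The difference from promoter peaks was thus larger in replicate 3 than in replicate 4, and the gap between the replicates was not tested.

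**Figure D2:**
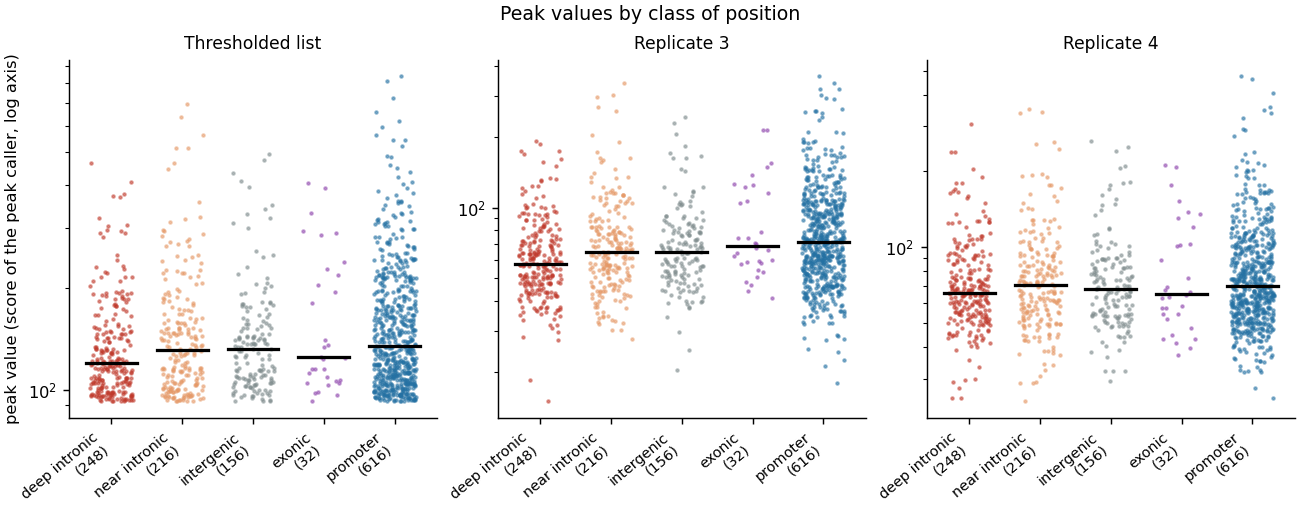
Peak values (y axis, the peak caller's score on a log axis) by class of position, with 1 point per nuclear peak, the class size in brackets and a black line at the median, in the thresholded list, in replicate 3 and in replicate 4. The deep intronic median is 119.6 in the thresholded list, below the 134.5 of promoter peaks, and 57.7 and 65.6 in replicates 3 and 4, against 71.8 and 69.8 for promoter peaks.

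The thresholded list keeps peaks that were matched between the replicates, and all 248 members overlapped a region of both replicate lists. Of the 1020 other nuclear peaks, all did so in replicate 3 and 1018 in replicate 4. Such overlap was thus largely, though not wholly, set by the way the list was made. Those lists hold 13374 nuclear regions in replicate 3 and 13434 in replicate 4, since they include background. The median rank of a member was 839.5 in replicate 3 and 675 in replicate 4. The replicate summits were a median of 11 bp (replicate 3) and 10 bp (replicate 4) from the member's own. In both replicates a summit lay within 100 bp for 96.0% of members (238 of 248) and for 96.1% of all other nuclear peaks (980 of 1020), a difference of -0.111 points (-3.50 to 2.18). Both shares are of peaks kept for their repeat and are given as a description. With a q-value of 0.05 or less required, 226 members had regions in both replicates, 245 in replicate 3 and 229 in replicate 4.

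The ranking of members differed between the replicates. Across the 248 members the rank correlation of the replicate 3 and replicate 4 values was 0.378, and across 1018 other nuclear peaks it was 0.564, given as descriptions of peaks from the same pair of libraries. In the thresholded list the values of members spanned less (quartiles 104 and 151, highest 464) than those of the other nuclear peaks (108 and 182, highest 837). Whether the narrower range bears on the lower correlation was not tested. Among members the replicate 3 values ran from 14.96 to 193 (median 57.7) and the replicate 4 values from 25.2 to 307 (median 65.6). Some members stood far apart in rank, in either direction. A peak in bun (value 95.6) ranked 11122 in replicate 3 and 420 in replicate 4, and one in cic, the gene of the repressor Capicua (value 107), ranked 6909 in replicate 3 and 329 in replicate 4. A peak in Pvf3, which encodes a growth factor of the PDGF and VEGF family (value 94.0), ranked 582 in replicate 3 and 7515 in replicate 4, and that in cv-c, a gene for a RhoGAP, ranked 1159 in replicate 3 and 7565 in replicate 4.

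**Figure D3:**
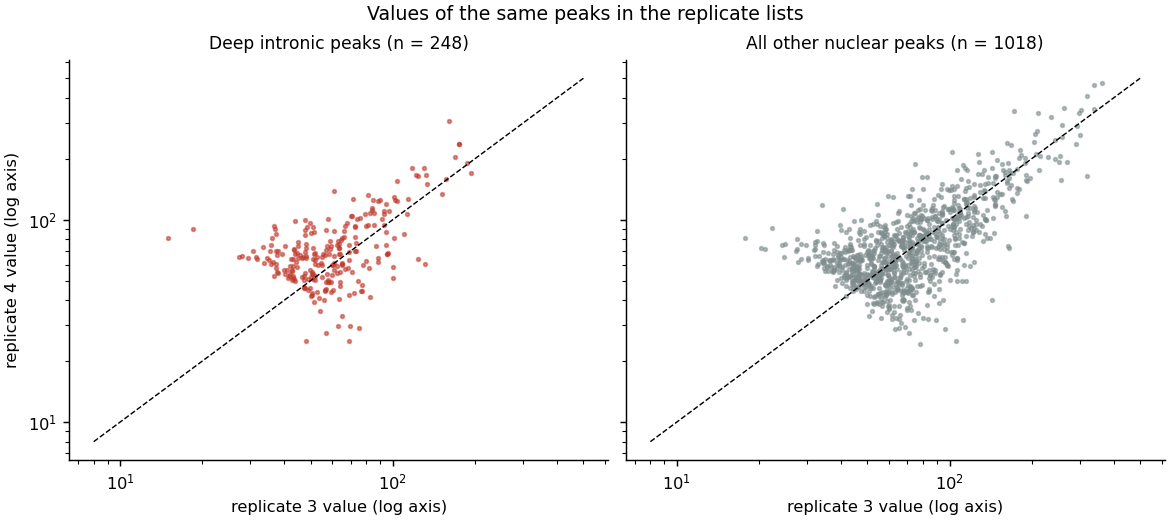
Value of each peak in replicate 3 (x axis) and replicate 4 (y axis), both on log axes, for the 248 deep intronic peaks (left) and the 1018 other nuclear peaks with a value in both lists (right), with a dashed line of equal values. The deep intronic cloud is the rounder one, with a rank correlation of 0.378 against 0.564.

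With all pooled-list regions counted, deep intronic regions came through the authors' threshold on reproducibility less often than promoter and nearer intronic regions. Under the same count they came through more often than exonic ones, but not among regions limited to q-values up to 0.05. Of 2218 pooled-list regions in deep introns, 266 (12.0%) overlapped a thresholded peak, against 15.3% of all other nuclear regions, a difference of -3.35 points (-4.89 to -1.72). Without replicate 3, with the regions of the replicate 4 list in place of the pooled ones, it was -1.35 points (-2.51 to -0.100), and without replicate 4 it was -4.02 points (-5.09 to -2.91). The share was 19.4% for promoter regions (a difference of -7.44 points, -9.30 to -5.54), 18.0% for nearer intronic regions (-5.96 points, -8.46 to -3.54), 10.6% for intergenic regions and 4.02% for exonic regions (36 of 896, a difference of 7.97 points, 6.003 to 9.77). The difference from intergenic regions, 1.44 points, had an interval that includes 0 (-0.609 to 3.44). Where the pooled regions were limited to q-values up to 0.05, the share was 46.7% in deep introns and 55.1% elsewhere. Under that limit promoter regions stood at 58.0%, nearer intronic regions at 56.4% and intergenic regions at 45.6%. Exonic regions then stood at 49.2% (32 of 65, 37.5 to 61.1%), an interval that includes the deep intronic share. With deep introns taken from 1000 bp on, the difference from the rest was -1.43 points and its interval (-2.91 to 0.0973) includes 0.

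The 15 highest members had values from 242 to 464 in the thresholded list. The first was in sbb (scribbler), which encodes a nuclear zinc-finger protein, with a value of 464 in the thresholded list, 161 in replicate 3 and 307 in replicate 4. It ranked 20 among all nuclear peaks, 64 in replicate 3 and 11 in replicate 4. The second was in Lrch, which encodes a leucine-rich repeat protein with a calponin homology domain, with 410 in the thresholded list, 175 in replicate 3 and 237 in replicate 4. The third lay inside 3 genes at once, CG46321, CG12912 and Hr3, with 377 in the thresholded list, 187 in replicate 3 and 190 in replicate 4. Hr3 encodes a nuclear receptor of the ecdysone cascade, the hormone cascade that times fly moulting and metamorphosis.

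Tlk followed with 371 in the thresholded list, 169 in replicate 3 and 204 in replicate 4. Gug had 368 in the thresholded list, 193 in replicate 3 and 170 in replicate 4. The fz peak, at 320, had 157 in replicate 3 and 159 in replicate 4. These 3 stood near the top of both replicate lists, at ranks 50, 30 and 69 in replicate 3 and 33, 60 and 78 in replicate 4. The others of the 15 highest were in Raf (306), S (303), Hr4 (295), CG32486 (293), CG12769 (289), sim (289), aos (282, where CG33158 is also annotated), Pak3 (249) and trx (242). Hr4 encodes another nuclear receptor of the ecdysone cascade, Pak3 a p21-activated kinase, and trx (trithorax) a histone methyltransferase that keeps homeotic genes active.

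Narrow regions were concentrated at the top. The usual width in the thresholded list was 390 bp. Among the 15 highest members 11 were narrower than that, while among all 248 members 12 were (4.84%) and among the other nuclear peaks 8.73%, a difference of -3.89 points (-6.67 to -0.113). Of the 15, 9 lay in the first intron of the longest transcript of their host, and for 13 the nearest start site was the host's own.

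At the low end the 5 members were in drl (93.0), Mp (a collagen gene, 93.0), cv-c (92.7), mgl (92.7) and CG46458 (92.6), the last of which also lies within Antp, a homeotic gene. In drl, a receptor of Wnt5, the value was 31.8 in replicate 3 and 63.7 in replicate 4. In mgl, the fly megalin, it was 43.2 in replicate 3 and 51.2 in replicate 4. The 5 members farthest from a start site were also of low or middle value. They lay in Snoo (34.9 kb, value 139), kirre (33.6 kb, 101), CG42238 (25.3 kb, 108), NetA (24.99 kb, 105) and fz (23.3 kb, 107). The median value fell little with distance, at 121 from 2 to 5 kb, 120 from 5 to 10 kb, 113 from 10 to 20 kb and 108 beyond 20 kb.

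Of the 248 members, 12 lay inside more than 1 gene. With each member counted once, under the shortest protein-coding gene around it as its host (or the shortest other gene where there was none), there were 184 hosts. Of these, 134 had 1 member, 41 had 2, 5 had 3, 3 had 4 and 1 had 5, so that 46.0% of members (39.9 to 52.2%) shared their host with another. With each member counted under every gene that holds it, there were 190 genes, 135 with 1 member, 43 with 2, 7 with 3, 4 with 4 and 1 with 5, and 47.2% of members (41.1 to 53.4%) shared a gene with another. Host genes were long, with a median of 19.9 kb of deep intronic sequence against 1.64 kb for all 4216 protein-coding genes that have any. Of all members, 244 lay in at least 1 protein-coding gene. In 3 cases a pair of members overlapped each other, and such a pair takes its replicate values from the same replicate regions.

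The host with most members was sbb, whose 5 lay in 1 intron of 43.5 kb over a span of 9290 bp. From left to right along the chromosome their values were 98.2, 179, 464, 192 and 105, so that the highest stood in the middle. In replicate 3 they were 42.2, 101, 161, 82.8 and 50.8, and in replicate 4 63.7, 81.2, 307, 108 and 50.8. Both replicates put the same member highest.

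Raf held 4 members in 1 intron of 25.4 kb, over a span of 4525 bp, with 306, 142, 177 and 104 in the order of distance from the Raf start site. The 4 in ush (u-shaped, a zinc-finger partner of GATA factors) had 149, 134, 135 and 96.1 over 34857 bp. Those in Eip75B, an ecdysone-induced nuclear receptor gene, had 97.4, 120, 123 and 114 over 41399 bp and 3 introns. Of these 3 hosts, Raf alone holds a member among the 15 highest. Counted under every gene, lncRNA:CR44357 also held 4 members, with 142, 143, 141 and 95.4, of which the last 3 lie within CG1677 as well.

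Hosts with 3 members were apt, simj, Lrch, mam and Hr4. Counted under every gene, CG1677 and kirre held 3 as well, those in kirre with 210, 101 and 105, the last of which also lies within CG32795. Hr4 had 295, 227 and 194, and these 3 were above the median of all nuclear peaks. In Lrch the members had 410, 128 and 166, and the first 2 overlap. In simj (simjang, a subunit of the NuRD chromatin remodelling complex) they had 154, 118 and 185, and again the first 2 overlap. In mam (mastermind, a coactivator of Notch) they had 93.9, 191 and 183, and in apt (apontic, a transcription regulator) 105, 214 and 123.

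Hosts were then grouped by 9 hand-written lists of 363 entries, which were drawn up with earlier results of these data known, so the counts describe them and give no independent support. Over all protein-coding genes with any deep intronic base, 186 of 4216 (4.41%) held a member when each member was counted under every gene that holds it, as in all the list counts, and the density over all deep intronic sequence was 5.99 members per Mb. Long genes offer more sequence, so the density is given beside each share.

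The ecdysone list had 6 of 19 genes with a member (31.6%, 15.4 to 54.0%) and 13 members at 21.8 per Mb. Beside Hr3, Hr4 and Eip75B these were Eip63E (139 for its higher member), which encodes a cyclin-dependent kinase, Eip74EF (113), an ETS factor gene, and E23 (108), which encodes an ABC transporter. The median value of the 13 was 120, beside 119.6 for all members.

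The list of chromatin and zinc-finger regulators had 9 of 37 genes with a member (24.3%, 13.4 to 40.1%) and 19 members at 29.6 per Mb, the highest density of the 9 lists. Of its members, 5 were those of sbb and 4 those of ush. The higher of the 2 trx members had 114 in replicate 3 and 126 in replicate 4, and the lower had 54.9 in replicate 3 and 59.9 in replicate 4. The member in Psc, a Polycomb repressor gene, had 203 in the thresholded list, 92.6 in replicate 3 and 111 in replicate 4. Its median value was 134.

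The signalling list had 12 of 50 genes with a member (24.0%, 14.3 to 37.4%) and 16 members at 19.9 per Mb. After fz (320) and aos (282) came N (193) and mam (191). N is the Notch receptor itself, and its member had 83.5 in replicate 3 and 111 in replicate 4. The member in aos had 133 in replicate 3 and 150 in replicate 4.

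The adhesion and axon guidance genes were at 15.7% (8 of 51) but at 5.13 members per Mb, which is near the 5.99 of all deep intronic sequence. Their highest members were in kirre (210), a gene of myoblast adhesion, caps (193), fra (192), which encodes the Netrin receptor Frazzled, and Sema1a (152), which encodes a semaphorin. The 3 RNA-binding hosts of 30 genes were Rbfox1, shep and bru2, with 5 members at 3.74 per Mb and values up to 230. The cytoskeleton and muscle list had 5 of 46 genes, led by cno (148) and pyd (121), at 7.09 per Mb. The patterning list had 3 of 20 genes, Antp, cad and lab, at 9.41 per Mb, with 121 as its highest value.

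Genes for ion channels and synaptic proteins held 0 members in 42 genes and 1.25 Mb of deep intronic sequence. The Wilson interval of 0 of 42 reaches up to 8.38% of genes and so includes the 4.41% of all protein-coding genes. The density was 0 per Mb, beside 5.99 over all deep intronic sequence, and no interval was computed for it. The genes of mitochondrial DNA maintenance, the process TFAM is best known for, also held 0 members. Of these, 4 of 14 have any deep intronic base, 1.85 kb in all, so there was hardly any sequence in which a member could lie.

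**Figure D4:**
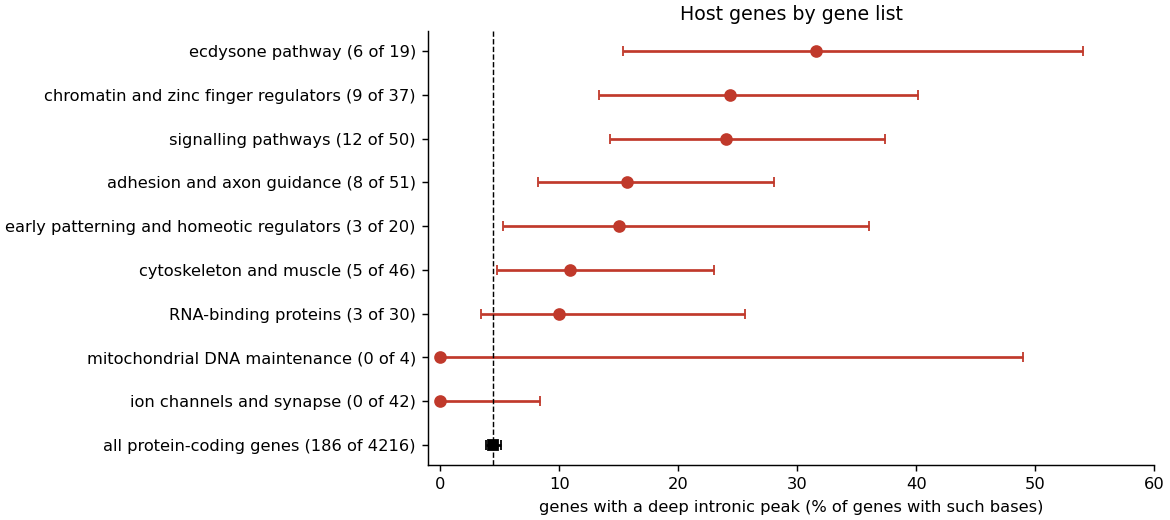
Share of the genes of each list that held at least 1 deep intronic peak (x axis, % of the list's genes with deep intronic bases; counts in brackets), with 95% Wilson intervals; the black square and dashed line give all protein-coding genes. The ecdysone, chromatin and signalling lists are at 24.0 to 31.6%, above the 4.41% of all genes, and the ion channel list is at 0.

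Around their summits the members were rich in A and T. In the 201 bp windows the median A+T content was 64.2% (quartiles 59.7 and 68.7%), against 59.7% (quartiles 54.2 and 65.2%) in 205819 deep intronic windows taken evenly across the chromosomes. Of the members, 176 of 248 stood above the 59.9% of all deep intronic bases. The median was 64.7% in nearer intronic peaks, 63.2% in intergenic peaks and 65.2% in promoter peaks, so the A+T content under deep intronic summits was close to that under the other classes.

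The excess of A+T was narrow and had flanks on the other side of the average. In the 20 bp nearest to the summit on each side, 68.1% of member bases were A or T. The share was 62.1% at 60 to 80 bp and 56.8% at 100 to 120 bp. It was lowest at 140 to 160 bp, with 54.5% in members, against 57.0% in nearer intronic, 57.1% in intergenic and 57.6% in promoter peaks. A core of A and T was thus set between flanks with less A and T than deep introns in general, in members as in the other 3 classes.

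Words of 6 letters were compared over both strands between the 248 member windows and the deep intronic windows of the same length. AAATAT was in 55.6% of members (49.4 to 61.7%) and in 33.9% of windows, AATATT in 36.3% of members and 17.9% of windows, and TAAATA in 45.6% of members and 28.9% of windows. AAAATA was in 52.8% of members and 39.3% of windows. At least 1 of these 4 words was in 204 members (82.3%) and all 4 in 27. Promoter peaks held them too, with AAATAT in 53.4% and AATATT in 29.5% of their windows. TAAATA was in 53.1% and AAAATA in 59.6% of promoter windows, which is above their shares in members.

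ACAGTG was the word with C and G among the 5 of largest difference. It was in 56 members (22.6%, 17.8 to 28.2%), in 7.29% of deep intronic windows and in 19.0% of promoter peaks, and the promoter share lies within the members' interval. CTGTGC, which was picked out after its values were seen and whose reverse complement GCACAG can share 4 bases with ACAGTG, was in 21.8% of members, 8.42% of windows and 14.0% of promoter peaks. The words with the largest deficit were GCCAAA (13.7% of members and 21.7% of windows), AATGGC (7.66% of members and 15.6% of windows), AAGGAG (2.02% of members and 9.05% of windows), AAAGGA (9.27% of members and 16.3% of windows) and CAGCCA (6.85% of members and 13.8% of windows). Each of these 5 holds C or G.

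The words took different places around the summit. Since they were chosen for their excess within 100 bp of these same summits, part of their density there over that farther out and over deep introns at large was set by the choice, and the densities are given as a description. The 4 words of A and T occurred 19.8 times per kb of member sequence within 25 bp of the summit, 9.44 times at 75 to 100 bp and 5.99 times at 200 to 300 bp, against 8.76 in all deep intronic bases. ACAGTG was the other way round, at 0.484 per kb within 25 bp of the summit (6 matches), 1.13 at 25 to 50 bp, 1.37 at 50 to 75 bp and 2.50 at 75 to 100 bp (31 matches), and then 1.09 at 100 to 150 bp. Over all deep intronic bases it occurred 0.389 times per kb. In promoter peaks ACAGTG also stood highest at 75 to 100 bp, at 1.88 per kb, so this placing was not confined to deep introns. In the printed windows the capital ACAGTG or CACTGT of Raf, aos, rdx, fz and sim stands in the outer part, and that of Gug further in. The A and T words of aos, fz, sim and Gug stand nearer to the middle. The windows of sim, aos and rdx were printed because they hold ACAGTG, so they serve as examples only.

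**Figure D5:**
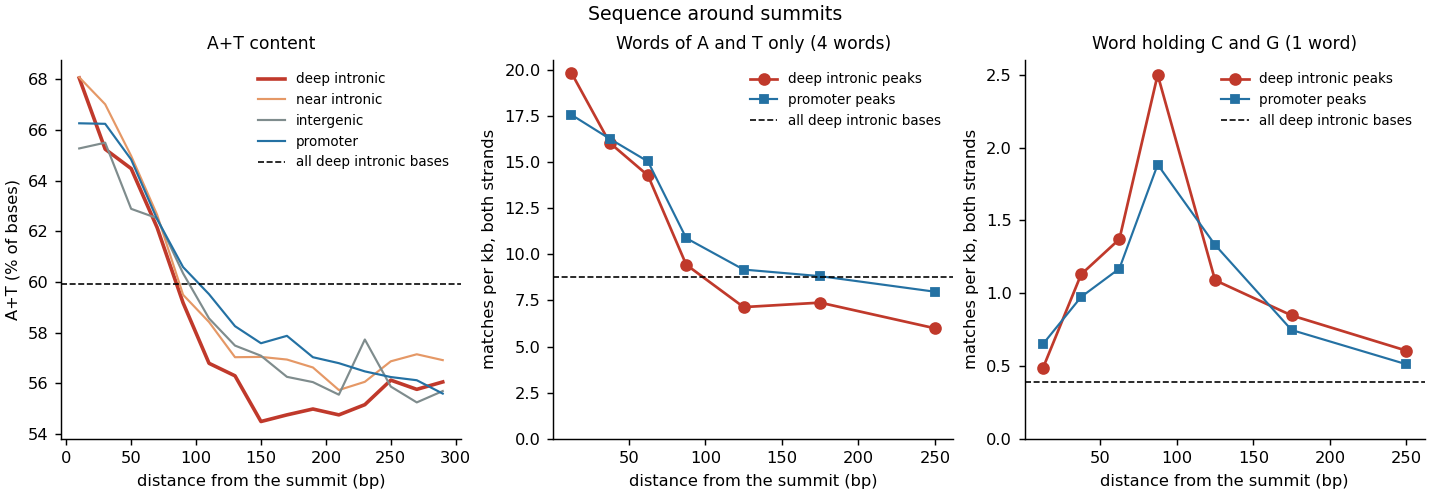
Left, A+T content (y axis, % of bases) by distance from the summit (x axis, bp, both sides together in bins of 20 bp) for deep intronic, nearer intronic, intergenic and promoter peaks, with a dashed line at the 59.9% of all deep intronic bases; middle and right, matches per kb on both strands of the 4 words of A and T and of the word that holds C and G, for deep intronic peaks (circles) and promoter peaks (squares). In deep intronic peaks A+T content runs from 68.1% at the summit to 54.5% at 140 to 160 bp, and the word with C and G is densest, at 2.50 per kb, at 75 to 100 bp.

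Known motifs were searched as exact letters on both strands of the 201 bp windows, with N for any base. Repeats were searched as GAGAG for the dinucleotide of G and A, as CACACA for that of C and A, and as AAAAAA for a tract of A. Promoter elements were searched as TATCGATA for the DRE element, as GGTCACA for the element of M1BP, and as TATAAA for the box of that name. Letters of other factors were CAGGTAG for Zelda, an activator of the early embryo, TGANTCA for members of the AP-1 family, GATAAG for the factors named after it, and AACAAT for HMG-box proteins. TATAAA and AAAAAA can share bases with the A and T words above. The intervals below are not adjusted for the 10 motifs, and a match describes the letters only.

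The DRE and the M1BP element were rarer in members than in promoter peaks. The DRE, which is bound by DREF at housekeeping promoters, was in 0 of 248 members, with a Wilson interval up to 1.53%, and in 5.19% of promoter peaks, a difference of -5.19 points (-7.24 to -3.06). M1BP letters were in 1 member (0.403%) and in 4.06% of promoter peaks, a difference of -3.66 points (-5.55 to -1.40). In deep intronic windows at large these shares were 0.445% and 1.31%, and the intervals of both differences from them include 0. CA repeats were in 18.5% of members and 13.1% of promoter peaks, a difference of 5.40 points (0.176 to 11.2), and in 17.4% of deep intronic windows.

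TATAAA and the GA repeat stood above deep introns in general. TATAAA was in 92 members (37.1%) and 23.6% of deep intronic windows, a difference of 13.5 points (7.68 to 19.6), and in 25.6% of intergenic peaks, a difference of 11.5 points (2.09 to 20.2). The share in promoter peaks was 36.4%, less than 1 point away. In nearer intronic peaks it was 35.2%, a difference of 1.91 points (-6.84 to 10.6), and in exonic peaks 15.6% (5 of 32). Among members above the nuclear median value the difference of TATAAA from windows was 5.53 points and its interval includes 0. The GA repeat, the kind of letters that GAGA factor binds, was in 28.2% of members and 21.5% of windows, a difference of 6.71 points (1.47 to 12.6). Among the other classes it was in 25.5% of nearer intronic, 30.1% of intergenic, 28.1% of exonic and 24.8% of promoter peaks. The intervals of the members' differences from nearer intronic, intergenic and promoter peaks include 0. In members the closest GA repeat was a median of 65.5 bp from the summit. In windows of 50 bp on each side the difference from windows turned to -2.51 points.

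For AACAAT, the letters searched for HMG-box proteins, no excess was detectable. Whether TFAM itself binds these letters was not tested, so their share is no measure of TFAM binding. AACAAT was in 56 members (22.6%) and 21.6% of deep intronic windows, a difference of 0.964 points (-3.80 to 6.56), and in 20.1% of promoter peaks. Intervals of the difference also included 0 for the A tract (41.5% of members and 36.7% of windows), GATAAG (11.3 and 8.01%), TGANTCA (3.63 and 4.17%) and CAGGTAG (2.02 and 0.911%). Under some other settings, given at the end, the intervals of the A tract, GATAAG and CAGGTAG lay above 0. By value, members with a GA repeat had a median of 130, against 118 for those without it, and members with TATAAA one of 119, against 121 for those without it. These medians are given with no test.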

How the data were processed

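The data were ChIP-seq peak lists of 2 samples in 1 group, from sonicated fragments of 200 to 800 bp per the labels. Per the deposited descriptions, the authors listed peaks with background regions once per replicate and once for both together, against a control. The thresholded list came from these by irreproducible discovery rate, which measures how well ranks repeat between replicates. Each deposited region has a score, called its value, and the −log10 of a q-value, which the authors' peak caller assigned. The names of aligner and caller are not given in the sources used, and the lists hold no read counts, so depth is unknown. The sequence of 1 further window is not reported here. Lists on the older build dm3 were not used here.

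From these, regions were placed by summit on the Ensembl 115 annotation (BDGP6.54, dm6) without transposable elements, positions being counted from 1. Classes were assigned in the order deep intronic, promoter, exonic, nearer intronic, intergenic. A replicate value is that of the highest overlapping replicate region. Base shares were counted over chromosomes 2L, 2R, 3L, 3R, 4 and X, and background windows were taken at every 201st base of each chromosome that met the rule. Shares have Wilson and differences of shares Newcombe 95% intervals, and no test across samples was possible with 1 group. The procedures were tested on simulated data. Python 3.11.15, numpy 2.4.6, pandas 2.3.3 and matplotlib 3.10.9 were used.

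Members, gene lists, motifs and alternatives were chosen with earlier results of these data known. Genes were named by rule: hosts of the 15 highest and 5 lowest members, hosts of 3 or more members, up to 4 of highest value in each gene list, the 5 members farthest from a start site, and 3 peaks on each side of the 2000 bp limit. The 5 words with the largest and the 5 with the smallest difference in share were named. Further hosts of the ecdysone, RNA-binding and patterning lists, rdx, the peaks in bun, cic and Pvf3 that differ in rank and the word CTGTGC were named after their values were seen.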

Additional observations from a re-analysis of the deposited data

How the results depend on the processing

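Of 171 recomputed values, 131 were labelled as unchanged. For differences this means the same direction and the same side of the threshold. The label also covers medians, shares and counts that have no direction, such as 3 motifs clear of the window share against 2. The label further covers summit agreement with a replicate left out, a difference of 0, although agreement between replicates cannot then be measured. Settings that leave out a replicate still used thresholded peaks, which came from both replicates. The share of summits against bases and the excess in first introns kept direction and side under all alternatives run for them. These included Y chromosome bases, chosen after seeing the data.

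Summit agreement between replicates, -0.111 points with an interval around 0, turned to 0.610 beyond 5000 bp, 0.0854 by peak middles, 0.333 above the median value, 2.23 within 50 bp, 0.283 within 200 bp, 1.02 with q-values up to 0.05 and 0.661 with 1 member per host, each again with an interval around 0. The difference in regions kept was -1.43 points from 1000 bp on, and -4.02 to -1.35 with 1 replicate left out. The difference from promoter peaks in value was -6.58 points above the median value, and -22.0 to -7.33 with 1 replicate left out. The share of members in shared hosts, 46.0%, was 34.7% beyond 5000 bp and 33.3% above the median value. The median A+T content was 67.3% in windows of 50 bp on each side and 61.0% in those of 150 bp. The number of motifs clear of the window share, 2, was 5 from 1000 bp on, 4 with protein-coding genes only, 1 above the median value, 1 in windows of 50 bp and 4 in windows of 150 bp, and it was 3 with 1 member per host, without replicate 3 and without replicate 4. Motif differences that changed sign were TGANTCA (0.0142 from 1000 bp on, 2.08 above the median value, 0.240 in windows of 150 bp), AACAAT (-2.78 beyond 5000 bp, -0.421 with 1 member per host), GAGAG (-2.51), CACACA (-1.58) and GATAAG (-0.856) in windows of 50 bp, GGTCACA (0.0198) in windows of 150 bp and CACACA (-1.09) with 1 member per host. GATAAG became clear of the window share from 1000 bp on (4.22 points) and with protein-coding genes only (4.15). It was also clear in windows of 150 bp (4.05) and with 1 member per host (4.49). The A tract became clear from 1000 bp on (6.16), with protein-coding genes only (5.75) and without replicate 4 (7.57). CAGGTAG became clear from 1000 bp on (1.25), in windows of 150 bp (1.83) and without replicate 3 (1.54). The cause of these changes was not tested.

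The intervals cover the counting of peaks only, the depth is unknown, and 2 replicates of 1 group give no comparison between conditions. No paired analysis was possible because both samples belong to 1 group.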
